A study of Mus musculus with 8 samples.

Results

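The comparison described here is that of untreated IPO13-/- mouse embryonic stem cells (mESCs) with untreated IPO13+/+ mESCs. It takes 4 of the 8 RNA-seq libraries of the series, chosen by their labels as the untreated ones, 2 of each genotype. The other 4 libraries hold the same genotypes after 125 µM H2O2 for 1 h and 2 h of recovery. They entered the estimate of spread and a check against samples outside the contrast. All cells derive from blastocysts of 129 x C57BL/6 background, per the labels. Both genotypes were grown without feeder cells, on gelatin and with LIF, the cytokine that keeps mESCs in self-renewal. The Methods describe 1 line of each genotype, so a difference between genotypes cannot be told apart from one between lines. The sources do not say whether the libraries of a group come from separate cultures.

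IPO13 is a member of the importin beta superfamily, the receptors that carry proteins through nuclear pores. It takes some cargoes into the nucleus and others out of it, and its known cargoes include transcription factors and parts of the splicing and translation machinery. mESCs represent the pluripotent cells of the early embryo. They express a network of transcription factors centred on OCT4, SOX2 and NANOG, and they keep most genes of later lineages and of the germline low.

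Reads assigned to genes numbered 60397877 to 73789079 in the untreated libraries. Of 23420 gene symbols, 19424 had at least 1 count in any library and were tested with edgeR's quasi-likelihood test. Genes that passed an FDR of 0.05 and a change of at least 2-fold are described as called. In IPO13-/- cells 556 of the genes tested (2.86%) passed this rule as higher and 358 (1.84%) as lower. With 2 libraries in each group, levels that do not overlap are common, and the groups did not overlap at 62.2% of all genes tested. Levels are CPM, the counts scaled to library size, after TMM normalisation, given for the 2 IPO13+/+ and then the 2 IPO13-/- libraries. Log2 fold changes are IPO13-/- over IPO13+/+ with their standard error. P-values measure the spread between libraries, which may be technical. The fit estimated a shared spread per gene over all groups, but the groups differed. Mean squared deviations between the 2 libraries, in units of counting error, were 15.0 in untreated IPO13+/+ and 4.58 in untreated IPO13-/- cells. They were 2.26 in treated IPO13+/+ and 6.59 in treated IPO13-/- cells, so small FDRs should be read with caution. With the FDR alone, 18.7% of the genes tested passed as higher and 19.4% as lower. Genes that passed the FDR but not the fold limit are described by their values. Of the genes tested 12366 reached 1 CPM in either group, and the shares that passed the FDR alone were not computed among these.

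The targeted gene was lower, but still detected, in the libraries labelled IPO13-/-. Ipo13 (ENSMUSG00000033365, chr4:117894486-117914999 in GRCm38, minus strand) stood at 70.3 and 68.3 CPM in IPO13+/+ and 25.9 and 25.0 CPM in IPO13-/- libraries. Its log2 fold change was -1.44 ± 0.05 (FDR = 9.5e-19). Counts summed over the whole gene do not show which part of the transcript remained. No other of the 27 importin and exportin family members tested was called, and the median log2 fold change of the family was -0.11. Among 12 genes that encode IPO13 cargoes Pax6 was called, as higher (8.33% of the list, beside 4.71% of all genes tested). Pax6 lies on chromosome 2, where the median log2 fold change was 0.27. The number called was 2 without IPO13-/- replicate 2 and 2 at a minimum of 10 counts over all libraries.

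The cells of both genotypes carried the markers of mESCs. None of 10 such markers was called, and their log2 fold changes lay between -0.59 and 0.26. Their summed level was 7180 and 7490 CPM in IPO13+/+ and 6399 and 6545 CPM in IPO13-/- libraries. Sox2 stood at 425, 418, 422 and 418 CPM and Nanog at 502, 553, 571 and 567 CPM. In a wider list of 29 genes of naive pluripotency none was called by edgeR, limma-voom or DESeq2, and 9 were higher and 12 lower at an unadjusted p under 0.05, which 21.8% of all genes tested passed as higher and 22.7% as lower. Log2 fold changes in this list lay between -0.64 and 0.38. The lowest was that of Tcl1, a co-activator of AKT signalling, at 112, 108, 70.4 and 71.5 CPM. Dppa5a, an abundant marker of undifferentiated cells, had a log2 fold change of -0.59 ± 0.04 (FDR = 4.4e-13).

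Markers of other cell types were low. Those of fibroblasts, the usual feeder cells, summed to 7.54 and 7.71 CPM in IPO13+/+ and 6.87 and 7.89 CPM in IPO13-/- libraries, and 8 of the 10 were under 1 CPM in both groups. Marker sets of primitive endoderm, neural cells and mesoderm, of 7 genes each, summed to between 19.3 and 24.4 CPM in each library. The trophectoderm set, also of 7 genes, summed to 7.84 and 8.79 CPM in IPO13+/+ and 9.94 and 9.92 CPM in IPO13-/- libraries. The blood marker set summed to 3.59 and 4.27 CPM in IPO13+/+ and 7.70 and 6.86 CPM in IPO13-/- libraries, with Cd34 called higher at 1.10, 1.48, 4.37 and 4.06 CPM and 2 of 7 markers at 0.

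Across the 33 gene lists examined, calls were most frequent among genes of the germline and of the two-cell-like state. The lists and their members were chosen with earlier results of these data known, so the shares called are not independent of these data. The median log2 fold change over all tested genes was 0. It was 0.94 over genes of the two-cell-like state, 0.61 over germline genes and -0.58 over genes of trophectoderm and placenta, the lowest of all lists. The plot of list members shows how few genes were called in most lists.

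**Figure D1:**
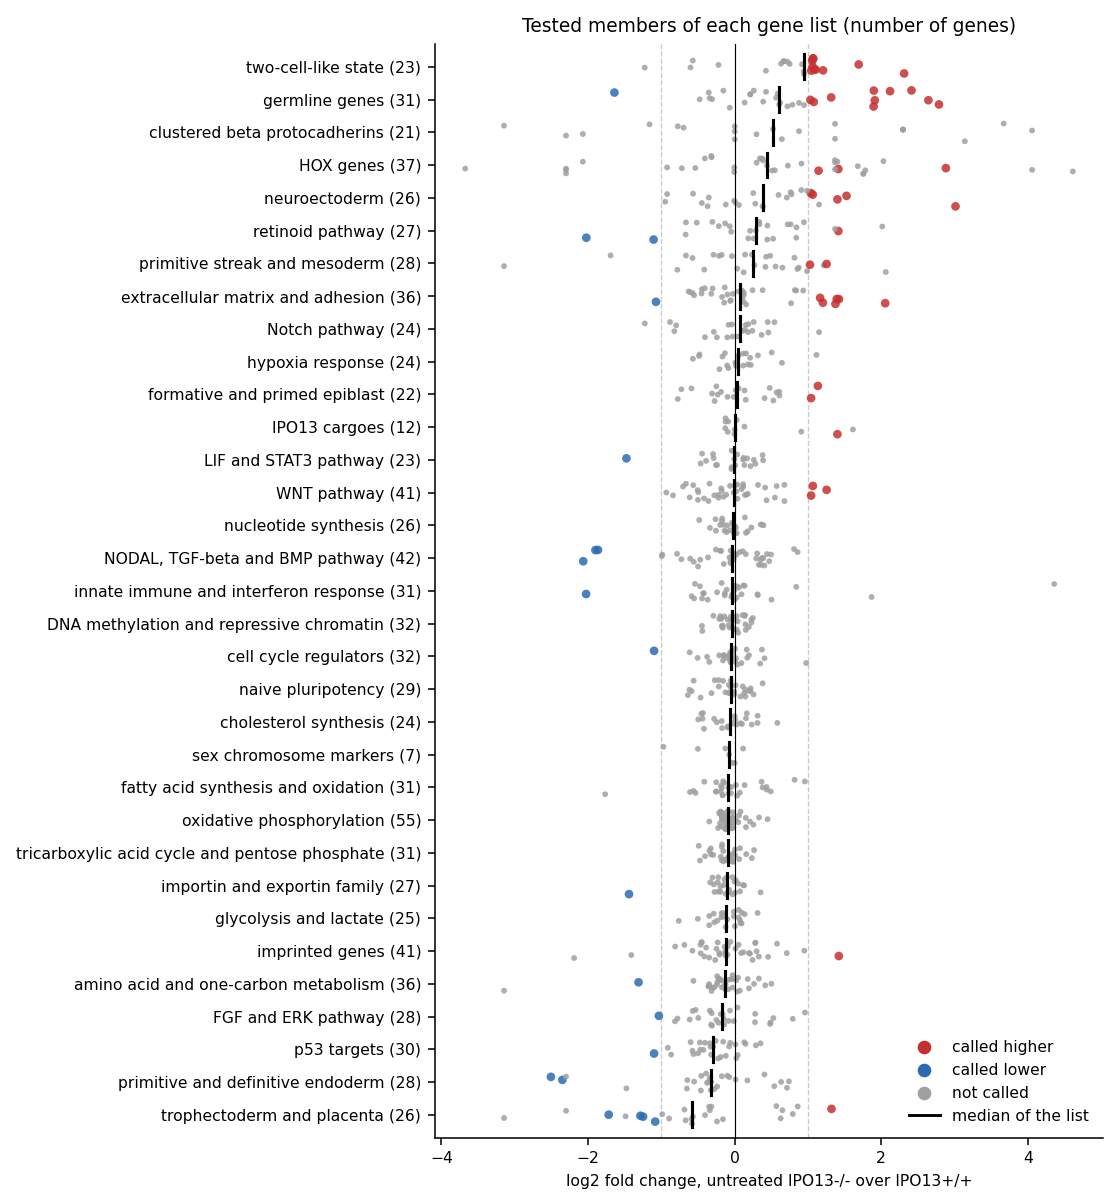
Log2 fold change, untreated IPO13-/- over IPO13+/+, of each tested member (points) of the 33 gene lists, ordered by the list's median (black bar), with dashed lines at 2-fold. Called members (red higher, blue lower) gather in the germline and two-cell-like lists on the higher side, and 4 of the 26 trophectoderm and placenta genes were called lower.

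Germline genes were higher in IPO13-/- cells. The list holds genes that are transcribed in testis or ovary and are silent or low in most other cells. Of its 31 members, 10 were called higher and 1 lower, beside 2.86% and 1.84% of all genes tested. A further 14 passed as higher at the FDR alone, as did 18.7% of all genes tested, called ones included. Asz1, a protein of the piRNA machinery, stood at 0.581 and 0.814 CPM in IPO13+/+ and 4.60 and 5.12 CPM in IPO13-/- libraries, a log2 fold change of 2.79 ± 0.14 (FDR = 4.0e-15). Slc25a31, the mitochondrial ADP/ATP carrier of sperm, stood at 1.42, 1.20, 8.05 and 8.28 CPM (2.64 ± 0.10 on the log2 scale, FDR = 1.1e-17). Both genes were several times higher in each IPO13-/- library than in any IPO13+/+ library.

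Tuba3b, a testis alpha-tubulin whose close copy Tuba3a could share its reads, stood at 0.954, 1.08, 5.29 and 5.61 CPM. Brdt, the bromodomain protein that reads acetylated histones in spermatids, stood at 0.373, 0.357, 1.53 and 1.66 CPM. Tex101, a surface protein of germ cells, was the least abundant of those named and had 11, 18, 45 and 64 counts. None of these 3 genes exceeded 5.61 CPM in any library. For the piRNA factors Tdrkh and Mov10l1 the log2 fold changes were 1.91 ± 0.14 and 1.89 ± 0.09. The meiotic genes called had smaller values. Sycp2, of the synaptonemal complex, had a log2 fold change of 1.32 ± 0.12, and it lies on chromosome 2, where the median was 0.27. Smc1b, the meiotic cohesin subunit, had one of 1.03 ± 0.07 that was 0.9977 without IPO13-/- replicate 1 and then no longer called.

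Dazl and Ddx4, RNA-binding proteins of germ cells, had log2 fold changes of 0.95 ± 0.06 and 0.88 ± 0.06, past the FDR but not the fold limit. The exception in direction was Prdm1, the transcription factor that specifies primordial germ cells, at 21.2 and 19.5 CPM in IPO13+/+ and 6.52 and 6.52 CPM in IPO13-/- libraries (log2 fold change -1.64 ± 0.07, FDR = 7.1e-17). Of the 10 higher members 9 were also called higher in the treated libraries, and Prdm1 was called lower there.

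The promoters of some of these genes are shown because the genes moved together and many germline genes are known to carry an E-box, the letters CACGTG, near their start. The 250 bases before the RefSeq start (GRCm38.p6) are given for 3 of the 4 called members that hold it, with CACGTG in capitals. They lie at chr3:40708621-40708870 (plus strand), chr5:107330944-107331193 (plus strand) and chrX:134476491-134476740 (minus strand), and the E-box begins 93, 78 and 49 bases before the start, respectively.
Slc25a31: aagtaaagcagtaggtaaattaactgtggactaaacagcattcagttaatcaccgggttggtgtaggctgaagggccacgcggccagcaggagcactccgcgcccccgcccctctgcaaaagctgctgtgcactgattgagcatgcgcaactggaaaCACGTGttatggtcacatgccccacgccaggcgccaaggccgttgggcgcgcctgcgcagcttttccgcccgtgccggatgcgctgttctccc
Brdt: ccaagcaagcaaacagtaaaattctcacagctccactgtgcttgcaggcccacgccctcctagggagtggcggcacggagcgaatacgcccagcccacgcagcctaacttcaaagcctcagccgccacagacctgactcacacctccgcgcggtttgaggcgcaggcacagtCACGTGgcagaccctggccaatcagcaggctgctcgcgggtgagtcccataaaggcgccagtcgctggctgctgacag
Taf7l: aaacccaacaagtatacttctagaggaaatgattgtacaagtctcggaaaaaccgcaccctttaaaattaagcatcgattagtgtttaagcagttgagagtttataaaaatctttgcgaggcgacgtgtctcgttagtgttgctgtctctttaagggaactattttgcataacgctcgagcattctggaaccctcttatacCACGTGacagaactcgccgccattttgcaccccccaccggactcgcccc
In windows from 250 bases before to 50 after the start, searched on both strands, CACGTG was present in 12 of the 27 germline genes that had a promoter in the table (44.4%). It was present in 8.09% of all 27025 promoters and in 10.3% of those of tested genes. Within the list it was present in 4 of the 10 members called higher and in 8 of the 17 others. A further 14 members of the list passed as higher at the FDR alone. This split therefore cannot show whether the motif goes with the change, which was not tested. Among all genes, it was present in 9.30% of the 398 promoters of those called higher and in 8.85% of the 226 of those called lower.

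Of 3 other motifs searched in the same windows, GGGCGG, known from SP1 sites, was present in 45.5% of the promoters of genes called higher, 42.9% of those called lower, 58.8% of tested genes and 38.2% of all promoters. CACCC, known from sites of Kruppel-like factors, was present in 66.1%, 73.0%, 66.7% and 59.8% of these. CCAAT was present in 47.5%, 38.5%, 42.1% and 41.1%. These shares describe letters in the windows and say nothing of binding.

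**Figure D2:**
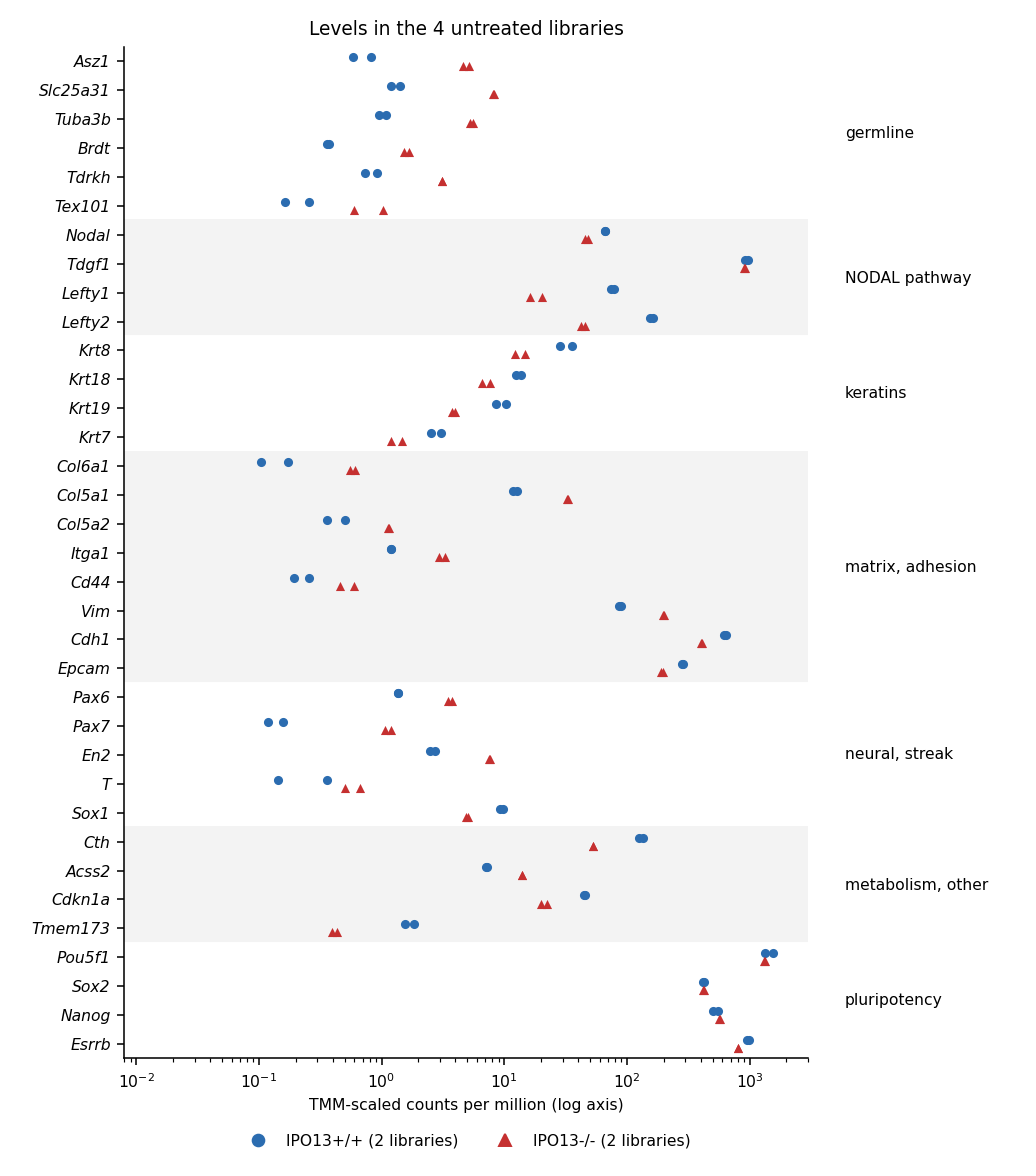
Levels of 35 genes in each of the 4 untreated libraries, as TMM-scaled CPM on a log axis (blue circles IPO13+/+, red triangles IPO13-/-). The 6 germline genes sit to the right in IPO13-/- libraries and Lefty1 and Lefty2 to the left, while Pou5f1, Sox2 and Nanog lie close together.

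Many members of multicopy, X-linked gene families that are expressed in germ cells were higher as well. These 4 families were chosen after their values were seen. Their copies are alike in sequence, so the counting could have split reads among them, and the sum over a family is given first. The Xlr genes, relatives of a synaptonemal complex protein, summed to 6.13 and 5.65 CPM in IPO13+/+ and 113 and 114 CPM in IPO13-/- libraries, a ratio of 19.3. The Magea genes, known from tumours and testis, summed to 0.328 and 0.243 CPM in IPO13+/+ and 7.71 and 7.18 CPM in IPO13-/- libraries, a ratio of 26.1. All 9 Xlr and 7 tested Magea genes were called higher in untreated and in treated cells. Of all genes tested, 2.86% were called higher in untreated cells. The most abundant copy, Xlr3a (chrX:73086293-73097095 in GRCm38), stood at 2.24 and 2.16 CPM in IPO13+/+ and 34.8 and 33.8 CPM in IPO13-/- libraries. Xlr4c had 9, 4, 517 and 422 counts and Magea5 1, 2, 130 and 94 counts.

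The Rhox homeobox genes, expressed in testis, ovary and placenta, differed among themselves. Their sum was 39.9 and 41.8 CPM in IPO13+/+ and 91.4 and 89.3 CPM in IPO13-/- libraries. Rhox5 stood at 17.3, 16.8, 51.5 and 49.2 CPM (log2 fold change 1.56 ± 0.05) and Rhox13 at 2.18, 2.31, 12.3 and 13.4 CPM (2.51 ± 0.09). Rhox6 and Rhox9, within the same cluster, had log2 fold changes of -0.16 ± 0.07 (FDR = 0.087) and -0.34 ± 0.09 (FDR = 0.0027). Of the 27 Rhox genes tested 8 were called higher, and of 6 Mageb genes tested 2, beside 2.86% of all genes tested. Mageb4 stood at 1.79, 1.68, 11.2 and 11.4 CPM, and Mageb16, the most abundant, at 35.4, 39.4, 39.0 and 39.6 CPM. Mageb3 lies on chromosome 2 and was not called.

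**Figure D3:**
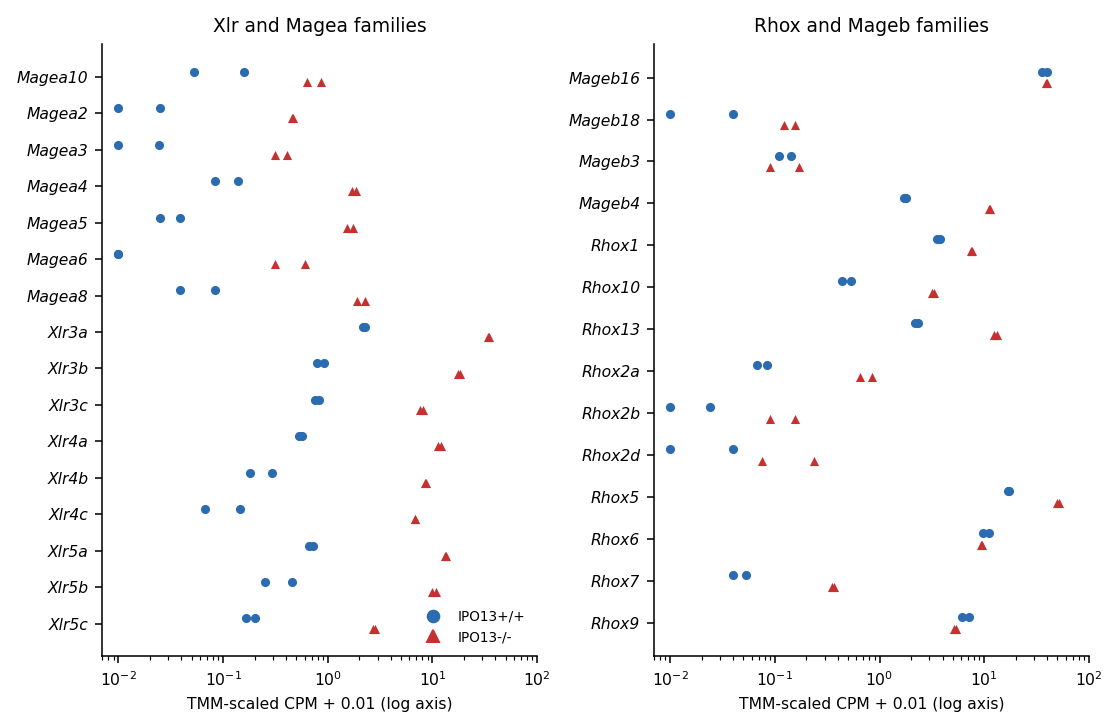
Levels of the Xlr, Magea, Rhox and Mageb genes with at least 10 counts in a library, as TMM-scaled CPM plus 0.01 on a log axis (blue circles IPO13+/+, red triangles IPO13-/-, 2 libraries each). All Xlr and Magea genes shown were higher in both IPO13-/- libraries, while Rhox6, Rhox9, Mageb3 and Mageb16 were not called.

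Some genes of the two-cell-like state, a rare state of mESCs that resembles the cleavage embryo, were higher, at low levels. Of 23 members tested 10 were called higher by edgeR, 10 by limma-voom and 6 by DESeq2. Of all genes tested, 2.86% were called higher by edgeR. In the list 22 members were under 1 CPM in both groups, as were 342 of all 556 genes called higher. The share called among all genes of similarly low level was not computed. None was called lower by these tools, nor lower at an unadjusted p under 0.05. Zscan4c, a marker of the state, had 21, 32, 57 and 54 counts (log2 fold change 1.06 ± 0.26, FDR = 0.0021), and the value was 0.82 without IPO13+/+ replicate 1 and 0.96 without IPO13-/- replicate 2, under the limit. Gm8300 had 18, 16, 63 and 48 counts. Several of these genes are near-identical copies, so the count of members is uncertain. The number called was 5 without IPO13+/+ replicate 1, 6 without IPO13-/- replicate 1 and 6 without IPO13-/- replicate 2, and 4 of the 10 were called higher in treated cells. In a bulk sample, a change in the number of cells of a kind and one in RNA per cell cannot be told apart.

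The NODAL targets Lefty1 and Lefty2 were lower in IPO13-/- cells. NODAL is a ligand of the TGF-beta family that acts through the co-receptor encoded by Tdgf1 and the factors SMAD2, SMAD3 and FOXH1. It induces its own inhibitors, LEFTY1 and LEFTY2. Of 42 genes of the NODAL, TGF-beta and BMP pathways, 3 were called lower, Lefty1 and Lefty2 among them (7.14% of the list, beside 1.84% of all genes tested called lower). Lefty1 (chr1:180935022-180938400 in GRCm38) stood at 78.1 and 74.5 CPM in IPO13+/+ and 16.2 and 20.4 CPM in IPO13-/- libraries (log2 fold change -2.07 ± 0.07, FDR = 2.5e-19). Lefty2 stood at 154, 164, 42.0 and 45.3 CPM (-1.86 ± 0.05). Each of these genes was lower in both IPO13-/- libraries than in either IPO13+/+ library, and both were called lower in the treated libraries too. Lefty1 and Lefty2 are alike in sequence, so the counting could have split reads between them.

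The ligand gene Nodal itself stood at 66.4, 66.8, 45.9 and 48.4 CPM, a log2 fold change of -0.499 ± 0.04 that passed the FDR (8.2e-10) but not the fold limit. Tdgf1 stood at 919.9, 979, 903 and 924 CPM. Id2 and Id4, targets of the BMP branch, had log2 fold changes of -0.99 ± 0.05 and -0.99 ± 0.07, just short of 2-fold. Fst, an inhibitor of activins, had one of -0.73 ± 0.08 and Id1 one of -0.47 ± 0.06. The number called lower in the list was 5 without IPO13+/+ replicate 2, and the median over the list was -0.03.

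Other signalling lists held few called members, 0 to 11.1% of a list beside 4.71% of all genes tested. In the WNT list 3 of 41 genes were called higher. Lef1, a nuclear effector of the pathway, stood at 6.54, 7.44, 15.4 and 13.4 CPM (log2 fold change 1.04 ± 0.08), and the value was 0.96 without IPO13+/+ replicate 1 and 0.96 without IPO13-/- replicate 1, under the fold limit. Tnfrsf19, a receptor induced by WNT, had a log2 fold change of 1.07 ± 0.11 that was 0.98 without IPO13-/- replicate 2. The remaining called gene was T, which encodes Brachyury. The number of called WNT genes was 1 without IPO13-/- replicate 1.

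In the FGF and ERK list Phlda1, a target of ERK signalling, was called lower at 24.7, 23.4, 12.6 and 10.7 CPM. Its log2 fold change of -1.03 ± 0.06 was -0.99 without IPO13+/+ replicate 1, -0.92 without IPO13-/- replicate 2 and -0.95 with library totals in place of TMM, and no member was called lower under these settings. Osmr, a receptor of the LIF family, was called lower from 22, 20, 8 and 7 counts. Its FDR was 0.0055, and 0.075 without IPO13-/- replicate 1 (0.0036 to 0.075 over the 12 alternatives). None of 24 Notch genes was called by edgeR, limma-voom or DESeq2. At an unadjusted p under 0.05, 8 were higher and 4 lower, beside 21.8% and 22.7% of all genes tested. The receptor gene Notch3 stood at 51.6, 50.1, 29.97 and 28.5 CPM, and Dtx4, a regulator of Notch, had a log2 fold change of -0.88 ± 0.11.

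In the retinoid list Aldh1a3, an enzyme that makes retinoic acid, was lower at 2.13, 2.71, 0.568 and 0.628 CPM (log2 fold change -2.02 ± 0.16). Dhrs3, which reduces retinaldehyde, was called lower at -1.11 ± 0.19 but fell short of the limit at -0.89 without IPO13+/+ replicate 2 and -0.99 without IPO13-/- replicate 1. Of 37 HOX genes 35 were under 1 CPM in both groups and 3 were called higher by edgeR, 5 by limma-voom and 2 by DESeq2. Among those called by edgeR were Hoxd1, with 0, 6, 23 and 23 counts, and Hoxb13, which had an FDR of 0.17 without IPO13+/+ replicate 2 and 0.18 without IPO13-/- replicate 1 (0.010 to 0.18 over the 12 alternatives).

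Some keratins and a few other genes from the list of trophectoderm, the outer epithelium of the blastocyst, and placenta were lower, whereas the summed level of the 7 trophectoderm markers given above was higher in both IPO13-/- libraries than in either IPO13+/+ library. Of those 7 markers Esx1 was called higher and Krt7 lower. Of 26 tested genes of trophectoderm and placenta, 4 were called lower and 1 higher, beside 1.84% and 2.86% of all genes tested. Krt8 stood at 28.7 and 35.6 CPM in IPO13+/+ and 12.3 and 14.8 CPM in IPO13-/- libraries (log2 fold change -1.25 ± 0.08, FDR = 1.6e-12), and Krt19 at 8.57, 10.4, 4.001 and 3.77 CPM (-1.29 ± 0.09). Krt18, the partner of KRT8 in the same filaments, had a log2 fold change of -0.89 ± 0.07, past the FDR alone. These 3 keratin genes were lower in both IPO13-/- libraries than in either IPO13+/+ library. Krt7 was called at -1.08 ± 0.14 and was -0.94 without IPO13+/+ replicate 2 and -0.91 without IPO13-/- replicate 1, under the limit. Plet1, present under its older symbol and known as a surface protein of trophoblast progenitors, stood at 31.1, 30.9, 9.18 and 9.68 CPM (-1.72 ± 0.06, FDR = 1.5e-18). The X-linked homeobox gene Esx1 went the other way, at 1.10, 1.41, 3.06 and 3.25 CPM. The defining factor Cdx2 had 20, 21, 20 and 13 counts, a log2 fold change of -0.32 ± 0.33 (FDR = 0.51).

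Some transcription factors of the neural lineage were higher, at low levels. Of 26 neuroectoderm genes 5 were called higher by edgeR, limma-voom and DESeq2 (the same number by each tool), beside 2.86% of all genes tested, and 11 were under 1 CPM in both groups. Pax6 (chr2:105668900-105697364 in GRCm38), which directs eye and forebrain development and encodes an IPO13 cargo, stood at 1.37, 1.37, 3.74 and 3.50 CPM (log2 fold change 1.40 ± 0.11, FDR = 1.3e-10). En2, a midbrain and hindbrain factor, stood at 2.50, 2.74, 7.45 and 7.68 CPM (1.53 ± 0.09), and Pax7, a factor of the dorsal neural tube and of muscle precursors, had 8, 11, 90 and 66 counts (3.01 ± 0.27). Sox1, an early neuroectoderm factor, stood at 9.85, 9.26, 4.85 and 5.07 CPM, a log2 fold change of -0.95 ± 0.08 that passed the FDR (1.5e-10) but not the fold limit. No member was called lower by these tools, and 3 were lower at an unadjusted p under 0.05, beside 22.7% of all genes tested.

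Nes, an intermediate filament of neural progenitors, had a log2 fold change of 0.71 ± 0.07. Lhx2 and Neurog1 were called at 1.07 ± 0.21 and 1.04 ± 0.20, but were 0.95 for Lhx2 without IPO13+/+ replicate 1 and 0.9966 and 0.88 for Neurog1 without IPO13+/+ replicate 1 and IPO13-/- replicate 2, and then no longer called. The number called in the list was 3 without IPO13+/+ replicate 1. Pax6 and Lhx2 lie on chromosome 2, where the median log2 fold change was 0.27.

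Early mesoderm genes were mostly at low levels and their calls depended on single libraries. Of 28 genes of the primitive streak and mesoderm 19 were under 1 CPM in both groups. In this list 2 were called higher (7.14%, beside 2.86% of all genes tested). T had 24, 10, 51 and 31 counts, and its FDR was 0.089 without IPO13+/+ replicate 2 and 0.11 without IPO13-/- replicate 1 (1.5e-04 to 0.11 over the 12 alternatives). Wnt3a, a ligand of the streak, had 29, 27, 65 and 50 counts, and its log2 fold change of 1.03 ± 0.21 was 0.95 without IPO13+/+ replicate 2. Neither gene was called without IPO13-/- replicate 1. Among 22 genes of the formative and primed epiblast, which follows naive pluripotency in the embryo, Lef1 and Nkx1-2 were called higher. They made up 9.09% of the list, beside 2.86% of all genes tested. Nkx1-2 had 5, 13, 21 and 19 counts and an FDR of 0.34 without IPO13+/+ replicate 1, 0.11 without IPO13-/- replicate 1 and 0.15 without IPO13-/- replicate 2 (0.012 to 0.34 over the 12 alternatives).

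In the endoderm list of 28 genes, 2 were called lower (7.14%, beside 1.84% of all genes tested) and 11 were under 1 CPM in both groups. Cubn, a receptor for protein uptake in the visceral endoderm, was lower with 117, 77, 15 and 23 counts (log2 fold change -2.35 ± 0.27). Srgn, a secretory granule proteoglycan, was lower with 42, 27, 8 and 4 counts. Sparc, a matrix protein that is abundant in parietal endoderm, stood at 258, 254, 198 and 206 CPM and was not called.

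Genes of the extracellular matrix and of adhesion changed in both directions. Of 36 members 6 were called higher and 1 lower, beside 2.86% and 1.84% of all genes tested. A further 4 passed as higher and 10 as lower at the FDR alone, beside 18.7% and 19.4% of all genes tested, called ones included. Vim, the intermediate filament of mesenchymal cells, stood at 89.5 and 86.7 CPM in IPO13+/+ and 196 and 199 CPM in IPO13-/- libraries (log2 fold change 1.17 ± 0.04, FDR = 2.2e-18). Col5a1, a fibrillar collagen chain, stood at 12.7, 11.8, 33.2 and 32.4 CPM (1.42 ± 0.06). The genes of the main epithelial adhesion proteins passed as lower at the FDR alone, with Cdh1, which encodes E-cadherin, at 643, 617, 412 and 403 CPM (-0.63 ± 0.04, FDR = 2.6e-13) and Epcam at 281, 286, 189 and 197 CPM (-0.55 ± 0.04). At each of these 4 genes the libraries of the genotypes did not overlap, as at 62.2% of all genes tested.

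The other matrix genes called were less abundant. The collagen chains Col5a2 and Col6a1 had log2 fold changes of 1.39 ± 0.22 and 2.05 ± 0.37, the collagen receptor subunit Itga1 one of 1.37 ± 0.13, and the hyaluronan receptor Cd44 one of 1.20 ± 0.29. Col1a1 was called lower at 2.40, 2.23, 0.938 and 1.29 CPM, and its log2 fold change of -1.07 ± 0.16 was -0.99 with library totals in place of TMM and -0.82 without IPO13-/- replicate 1. Vim, Col5a1 and Cd44 lie on chromosome 2, where the median log2 fold change was 0.27. Relative to the median of their chromosomes 4 of the 6 higher members passed the limit, and Vim and Cd44 did not.

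Genes of core metabolism were within 2-fold or did not pass the FDR. None of 25 genes of glycolysis and lactate, 31 of the tricarboxylic acid cycle and pentose phosphate pathway, 55 of oxidative phosphorylation, 24 of cholesterol synthesis, 31 of fatty acid synthesis and oxidation, 26 of nucleotide synthesis or 24 of the hypoxia response was called by edgeR, limma-voom or DESeq2. Summed over these 7 lists, 40 members were higher and 98 of 216 lower at an unadjusted p under 0.05, beside 21.8% higher and 22.7% lower of all genes tested. In the glycolysis list 14 genes passed as lower and 2 as higher at the FDR alone, beside 19.4% and 18.7% of all genes tested. The background is unlike these lists in level. In the glycolysis list 0 members and in the oxidative phosphorylation list 1 were under 1 CPM in both groups. Of the 19424 genes tested 12366 reached that level, and the shares among those alone were not computed. Hk2, a hexokinase, stood at 464, 439.6, 329 and 308 CPM (log2 fold change -0.503 ± 0.04), and Ldha, the lactate dehydrogenase subunit, at 1484, 1632, 1219 and 1230 CPM (-0.35 ± 0.04). The median over glycolytic genes was -0.12 in untreated and -0.01 in treated cells. In oxidative phosphorylation 20 genes passed as lower and 6 as higher, with a median of -0.09 in untreated and 0.05 in treated cells. Medians and counts of changes this small depend on the scaling. TMM factors were 0.970 and 0.973 in untreated IPO13+/+ and 1.026 and 1.028 in untreated IPO13-/- libraries. In treated libraries they were 0.9998 and 0.996, and 1.006 and 1.003. With library totals in place of TMM the log2 fold change of Sox2 moved from -0.0054 to 0.0753. The medians were not recomputed with library totals.

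In the list of amino acid and one-carbon metabolism, the only 1 of 36 genes called by edgeR was Cth, which encodes cystathionine gamma-lyase, the enzyme that makes cysteine from cystathionine. It stood at 127 and 136 CPM in IPO13+/+ and 52.7 and 53.3 CPM in IPO13-/- libraries (log2 fold change -1.31 ± 0.04, FDR = 1.2e-18). It was called lower in the treated libraries as well. Asns, the asparagine synthetase, stood at 389, 378, 292 and 311 CPM. Acss2, which makes acetyl-CoA from acetate and lies on chromosome 2, stood at 7.15, 7.28, 14.05 and 13.98 CPM, just short of 2-fold (0.96 ± 0.07). Elovl6, a fatty acid elongase, stood at 195, 178, 132 and 126 CPM. In the cholesterol pathway Dhcr7 and Fdft1 had log2 fold changes of opposite sign, 0.58 ± 0.04 and -0.497 ± 0.04.

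Pgd, of the pentose phosphate pathway, had a log2 fold change of -0.49 ± 0.04, and Pck2, the mitochondrial PEP carboxykinase, one of -0.47 ± 0.05. Among hypoxia response genes, Ddit4, an inhibitor of mTOR signalling, had one of -0.57 ± 0.06 and the adenylate kinase gene Ak4 one of 0.32 ± 0.04. In nucleotide synthesis, Uck2, which salvages uridine and cytidine, and Prps2, which makes the ribose phosphate donor, had log2 fold changes of -0.48 ± 0.04 and 0.39 ± 0.05.

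Of 30 target genes of p53 only Cdkn1a, which encodes the cyclin-dependent kinase inhibitor p21, was called, and it was lower at 45.2, 45.01, 19.99 and 22.2 CPM (log2 fold change -1.10 ± 0.05, FDR = 1.3e-15). A further 17 passed as lower and 3 as higher at the FDR alone, beside 19.4% and 18.7% of all genes tested, called ones included. Only 1 of the 30 was under 1 CPM in both groups, whereas 12366 of the 19424 genes tested reached that level. Among those lower was Mdm2, whose product targets p53 for degradation, at 173, 156, 120.1 and 118 CPM. Of 32 cell cycle regulators Cdkn1a was again the only 1 called by edgeR. E2f2, a transcription factor of the cell cycle, stood at 16.5, 16.9, 33.8 and 31.8 CPM (0.97 ± 0.06), and it was called higher at 1.05 with library totals and 1.02 without IPO13-/- replicate 2. In the innate immune list Tmem173, which encodes the adaptor STING of cytosolic DNA sensing, was the only 1 of 31 called, at 1.83, 1.56, 0.396 and 0.435 CPM (-2.03 ± 0.18).

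None of 32 genes of DNA methylation and repressive chromatin was called by edgeR, limma-voom or DESeq2, and the median of the list was -0.04. At an unadjusted p under 0.05, 8 were higher and 11 lower, beside 21.8% and 22.7% of all genes tested. Tet2, which oxidises methylcytosine, stood at 312, 262, 224 and 199 CPM, and the histone methyltransferase gene Ehmt2 at 228, 234, 193 and 184 CPM. Of 41 imprinted genes H19, a non-coding RNA transcribed from the maternal allele, was the only 1 called by edgeR, at 11.3 and 14.2 CPM in IPO13+/+ and 34.4 and 33.9 CPM in IPO13-/- libraries (log2 fold change 1.42 ± 0.07, FDR = 1.6e-15). Dcn, a matrix proteoglycan with 4, 6, 0 and 2 counts, was called lower by limma-voom (FDR = 0.029) but not by edgeR (FDR = 0.12), and relative to the median of their chromosomes 1 imprinted gene was called lower. The 21 beta protocadherin genes tested were all under 1 CPM in both groups. None was called by edgeR or DESeq2 or had an unadjusted p under 0.05, and 1 was called higher by limma-voom. Xist, the RNA that silences an X chromosome in female cells, stood at 11.8, 10.8, 6.43 and 4.99 CPM (-0.97 ± 0.09, past the FDR alone). It was called lower at -1.04 without IPO13+/+ replicate 2 and -1.16 without IPO13-/- replicate 1, and in treated cells at -1.33 (FDR = 5.5e-13). None of the 8 Y-linked genes looked up had a count in the untreated libraries. Xist overlaps its antisense partner Tsix, whose log2 fold change was -0.502 ± 0.11, and the strand setting of the counting is not given in the sources used here.

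Beyond the lists, X-linked genes made up most of the largest rises among genes of at least 10 CPM in a group. Of the 10 largest rises 7 were X-linked, namely Xlr3a, Xlr3b, Xlr4a, Xlr5a, Xlr5b, 1700013H16Rik at 0.820, 0.899, 29.4 and 29.1 CPM, and the testis gene Usp26, a deubiquitinase, at 8.29, 6.72, 57.5 and 53.9 CPM. The other 3 were BC002163, Gm5801 and Nlrp4c, an oocyte gene at 0.611, 0.585, 13.3 and 14.2 CPM. The largest falls included Ipp, a kelch-repeat gene (chr4:116507549-116538243 in GRCm38), at 174 and 182 CPM in IPO13+/+ and 7.26 and 6.99 CPM in IPO13-/- libraries (log2 fold change -4.64 ± 0.06, FDR = 1.4e-28).

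Ube2l6, the conjugating enzyme for the ubiquitin-like protein ISG15, stood at 19.8, 20.5, 2.07 and 2.51 CPM, and Tnfrsf8, the receptor CD30, at 16.2, 17.9, 3.53 and 3.27 CPM. B4galt6, which makes lactosylceramide, stood at 271, 232, 54.1 and 50.9 CPM. Cyp1a1, the oxidase induced by the aryl hydrocarbon receptor, stood at 14.6, 17.1, 1.82 and 1.95 CPM. Gm8801, Pla2g7, Nynrin and Lefty1 were among the other large falls.

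The genotype difference was looked up in the treated libraries, whose levels did not enter the untreated contrast. Of the 556 genes called higher 539 had the same sign there and 342 (61.5%) were called. Of the 358 called lower 342 had the same sign and 204 (57.0%) were called, while 4.56% of all genes tested were called in either direction. The median log2 fold change was 1.603 in untreated and 1.33 in treated cells for the former and -1.39 and -1.14 for the latter. The untreated values had chosen these genes. Many had low levels, with 342 of the higher and 161 of the lower genes under 1 CPM in both untreated groups.

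**Figure D4:**
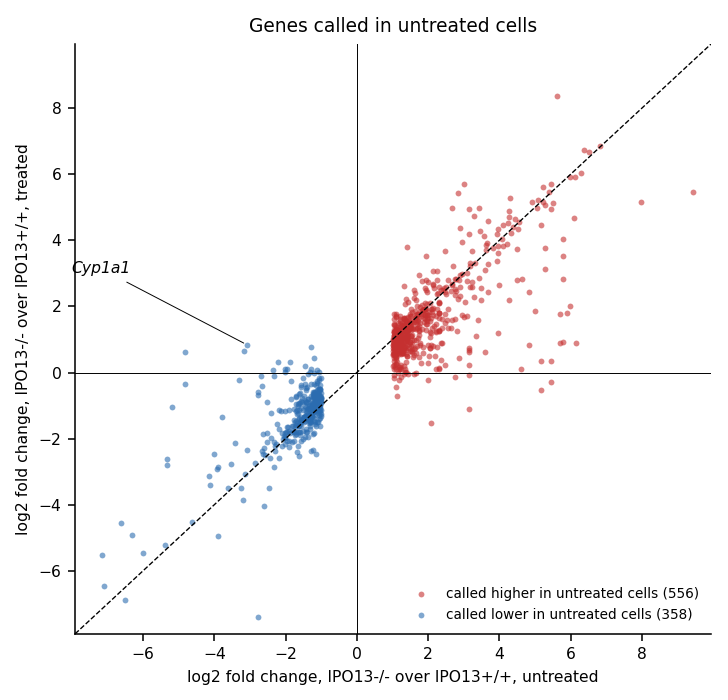
Log2 fold change, IPO13-/- over IPO13+/+, of the 914 genes called in untreated cells (x axis) against the same in H2O2-treated cells (y axis), each point 1 gene, with equality dashed. Most points lie in the upper right or lower left quadrant, and Cyp1a1 lies at -3.08 and 0.84.

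Changes were unevenly spread over the chromosomes. Among 12366 genes of at least 1 CPM in either group 3.32% were called. On the X chromosome 51 of 498 such genes were called higher and 6 lower (11.4%). Leaving out the Xlr, Magea, Mageb and Rhox genes, 34 of 478 were higher and 6 lower (8.37%), beside 2.92% called on the chromosomes other than 2 and X.

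On chromosome 2 the difference was small and broad. The median log2 fold change there was 0.27 in untreated and 0.29 in treated cells, and 87.2% of its genes had a positive value, while the median over the other chromosomes was -0.03. In 9 windows of 20 Mb along chromosome 2 the median lay between 0.22 and 0.31, and in windows on the other autosomes between -0.15 and 0.15. The share of called genes on chromosome 2 was 3.79%.

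On chromosome 4, which carries Ipo13 and Ipp, the called genes lay in the distal part. A split at 100 Mb, chosen after the values were seen, left 1 called of 278 genes of at least 1 CPM before it and 37 of 534 (6.93%) after it, 13 higher and 24 lower. Within chromosome 4 the share was highest in the window from 140 to 160 Mb, at 10.4%. It was 5.51% in the window from 100 to 120 Mb, which holds Ipo13 and Ipp. Windows from 40 to 60 Mb on chromosomes 6 and 3 had higher shares, 11.25% of 80 and 10.87% of 46 genes.

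**Figure D5:**
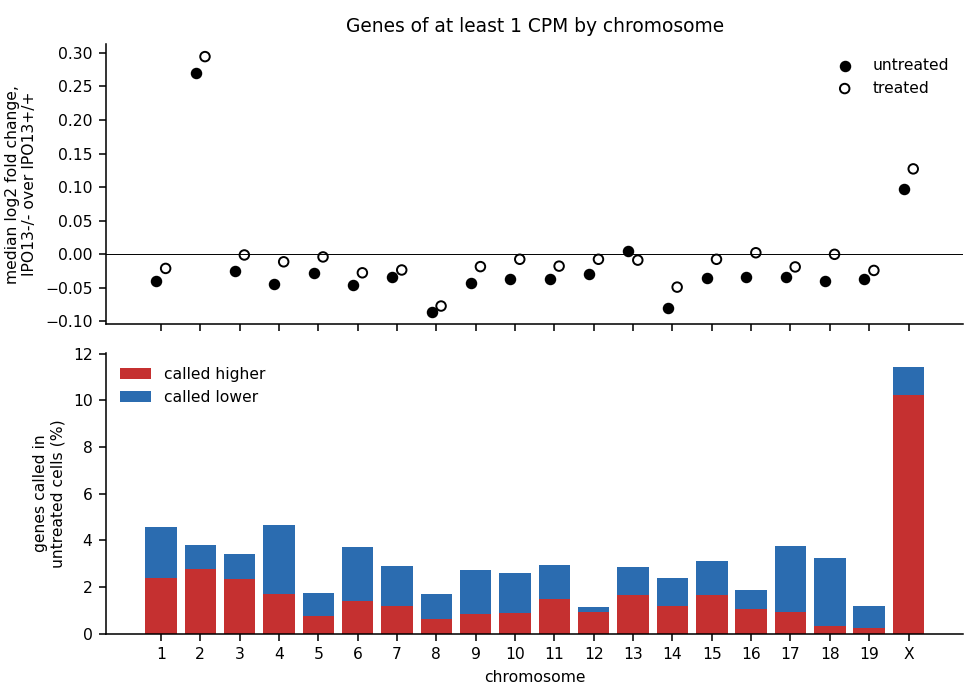
By chromosome, for genes of at least 1 CPM: median log2 fold change of IPO13-/- over IPO13+/+ in untreated (filled) and treated (open) cells, above, and percent of genes called higher (red) and lower (blue) in untreated cells, below. Chromosome 2 stands at a median of 0.27 and chromosome X at 11.4% called.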

How the data were processed

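RNA-seq libraries were made from mRNA with the TruSeq kit, and the authors mapped reads to mm10 and counted them on genes. The submitters' processing notes name STAR 2.3.1, HTSeq and limma. The labels and the Methods give different sequencers and read lengths. The authors deposited raw counts for 23420 symbols, used for all tests here, and CPM, which were only checked against the counts.

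Groups came from the labels. Genes with any count were fitted in edgeR 4.0.16 (R 4.3.3) with TMM factors and the quasi-likelihood test, with 1 coefficient per group and all 8 libraries. P-values were Benjamini-Hochberg adjusted over 19424 genes. The common dispersion was 0.00113. SEs were obtained from the fold change and its F statistic. A floor of 3 counts, 0.0407 to 0.0497 CPM before TMM scaling, covers counting error only. The members and lists were chosen with earlier results of these data known. Genes were named as Ipo13, the 10 largest called rises and falls of at least 10 CPM, up to 6 called members of a list with 10 or more counts in both libraries of a group, up to 2 of the smallest FDR where no member was called, and defining markers. Outside this rule, 37 genes, the X-linked families, and the windows were chosen after their values were seen. Some genes that the rule names are not reported here. Positions come from GENCODE M21 (21751 symbols matched, and 1277 through RefSeq synonyms). Alternatives used limma 3.58.1 (voom), DESeq2 1.42.0, other factors and filters, a replicate block, and leaving out each library. The fits were tested on simulated data.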

Additional observations from a re-analysis of the deposited data

Results flagged for a closer look

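Of 143 genes examined by name, 15 had a genotype difference that itself differed between untreated and treated cells. The edgeR interaction test was used at an FDR below 0.05, adjusted over all genes tested, of which 2.71% passed. Many of the 143 were named for their untreated change, which also enters the interaction. Smaller treated values are therefore favoured, and the 15 are not comparable with that share. Small differences rest on a spread shared over groups that differed, and should be read with caution. Differences are given as the treated minus the untreated log2 fold change, each followed by the untreated and the treated value. The largest was at Cyp1a1, 3.92 ± 0.12 (FDR = 9.5e-19), which was called lower in untreated IPO13-/- cells and had a log2 fold change of the opposite sign in treated cells (-3.08 and 0.84). Cubn differed by 2.43 (FDR = 9.8e-05) and was close to 0 in treated cells (-2.35 and 0.08). Tnfrsf19 differed by -0.89 (FDR = 2.8e-04) and was also close to 0 in treated cells (1.07 and 0.17).

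Vim was the only 1 of these genes with a larger difference in treated cells, by 0.33 (1.17 and 1.495). Among the transcriptional regulators, Prdm1 differed by 0.64 (-1.64 and -1.002), Id2 by 0.73 (-0.99 and -0.26) and Id1 by 0.71, with a change of sign (-0.47 and 0.24). Aldh1a3 differed by 0.85 (-2.02 and -1.17) and Phlda1 by 0.53 (-1.03 and -0.51). The p53 targets Cdkn1a and Mdm2 differed by 0.495 (-1.10 and -0.60) and 0.28 (-0.47 and -0.19). Among pluripotency genes, Tcl1 differed by 0.24 (-0.64 and -0.40), Esrrb by 0.21 (-0.27 and -0.06) and Zfp42 by 0.22 (-0.22 and -0.00054). In the cholesterol pathway Fdft1 differed by 0.26 (-0.497 and -0.24).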

How the results depend on the processing

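The numbers of genes called higher and lower (556 and 358) stayed within 1.5 times under each alternative run except dropping the fold limit, which gave 3634 and 3777. They were 711 and 451 with limma-voom, 417 and 292 with DESeq2, 557 and 364 with RLE factors, 656 and 297 with library totals, 537 and 336 with filterByExpr, 588 and 384 at a minimum of 10 counts, 568 and 346 with the 4 untreated libraries alone, and 556 and 345 relative to chromosome medians. Leaving out 1 library gave 474 to 520 higher and 306 to 345 lower, with the lone library of a group assumed to vary like the others, of which 415 to 436 and 256 to 293 were shared with the calls on all libraries. The cause of these differences was not tested.

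With the replicate number as a block, 560 and 359 genes were called higher and lower, of which 547 and 354 were shared with the fit without it. The labels do not say what a replicate number shares, and with 2 pairs the pairing could not be established. Deviations of same-numbered libraries correlated at 0.364 over 8620 genes, given as a description.

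Of 89 called genes among those examined by name, 71 kept their call and direction in all 12 alternatives run for single genes. A further 18 lost the call in at least 1, and none changed direction. Centring on the chromosome median was not among these 12, and some of the higher matrix genes were no longer called with it, as given above. Among genes near 0, Sox2 (-0.0054) was 0.0753 with library totals, 0.0103 with filterByExpr, 0.0085 with the untreated libraries alone, and -0.016 to 0.0079 when 1 library was left out. Tdgf1 was 0.0256 with library totals, and Mageb16 was -0.0032 to 0.1502 when 1 library was left out. Of the genes not called, Id2 passed at -1.065 without IPO13-/- replicate 2, Id4 at -1.058 without IPO13+/+ replicate 2, Dazl at 1.024 without IPO13+/+ replicate 1 and 1.026 with library totals, and Acss2 at 1.038 with library totals. Low levels limit the precision of many fold changes.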
